A study of Mus musculus with 6 samples.

Results

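Inflammatory signalling and leukocyte adhesion were followed through 10 genes in mouse aortic valves of 2 ages: the cytokines Il6, Tnf, Il1b and Il33, the receptor Il1r1, the NF-kB inhibitors Nfkbia and Tnfaip3, and the adhesion molecules Sele, Icam1 and Vcam1. They were taken by gene symbol, and all 10 were present among the 46983 genes measured and among the 25903 genes with enough signal to be tested. Valves of wild type C57BL/6J mice, taken either on postnatal day 2 (PND2) or as adults of 4 months, were frozen and sequenced as 3 libraries per age, each a pool of 5 to 6 mice, so the spread between libraries is a spread between pools and not between single animals. The comparison addresses how the transcriptome of a leaflet that is still growing differs from that of the adult leaflet. All animals were wild type, no treatment is given for either group, and the labels differ between the groups in age. The values are RPKM, reads scaled by exonic length and by the total of the library. Library totals recovered from these values, 23810507 to 38994657, make 1 read on a gene of 1 kb worth 0.0256 to 0.0420 RPKM.

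As background, the cytokines IL-1 beta and TNF bind receptors whose adaptors activate the kinase complex that marks the inhibitor I-kappa-B alpha, the product of Nfkbia, for destruction, and this frees NF-kB to enter the nucleus. NF-kB then drives genes for cytokines such as Il6, for the surface proteins ICAM-1, VCAM-1 and E-selectin, and for its own brakes, among them Nfkbia and Tnfaip3. On endothelium, E-selectin catches rolling leukocytes through carbohydrate ligands, and ICAM-1 and VCAM-1 hold them by binding integrins. The aortic valve leaflet is covered by endothelium, filled with interstitial cells and matrix, and holds resident macrophages.

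The 10 genes did not move as a block. Of these, 6 were higher at 4 months at an adjusted p under 0.05 (limma, 2-sided, adjusted over all 25903 genes tested): Il1b, Icam1, Il33, Vcam1, Il1r1 and Nfkbia. Across all genes tested 14.7% were called higher and 21.1% lower. Sele was called lower, and Il6, Tnf and Tnfaip3 were not called. The largest increase among the members was 16.8-fold in mean RPKM (Il1b), followed by 3.54-fold (Icam1) and 3.22-fold (Il33). The median log2 fold change of the 10 genes was 0.65, against -0.14 over all genes tested. The 3 libraries of each age did not overlap for 9 members, 7 of them higher and 2 lower at 4 months, and 50.0% of all genes tested showed no overlap, 20.0% in the higher and 29.9% in the lower direction. No member changed direction under another scaling of the libraries, although scaling moved the balance of all calls: 41.1% of the genes called were higher at 4 months with RPKM as deposited, 52.3% with median scaling, 47.0% with quantile normalization and 53.6% with limma voom on recovered reads. The per-gene unequal-variance test, which does not share the spread over genes, called 3 members higher (Icam1, Il33 and Tnf) and 0 lower, and 3408 of all genes against 9273 with limma.

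**Figure D1:**
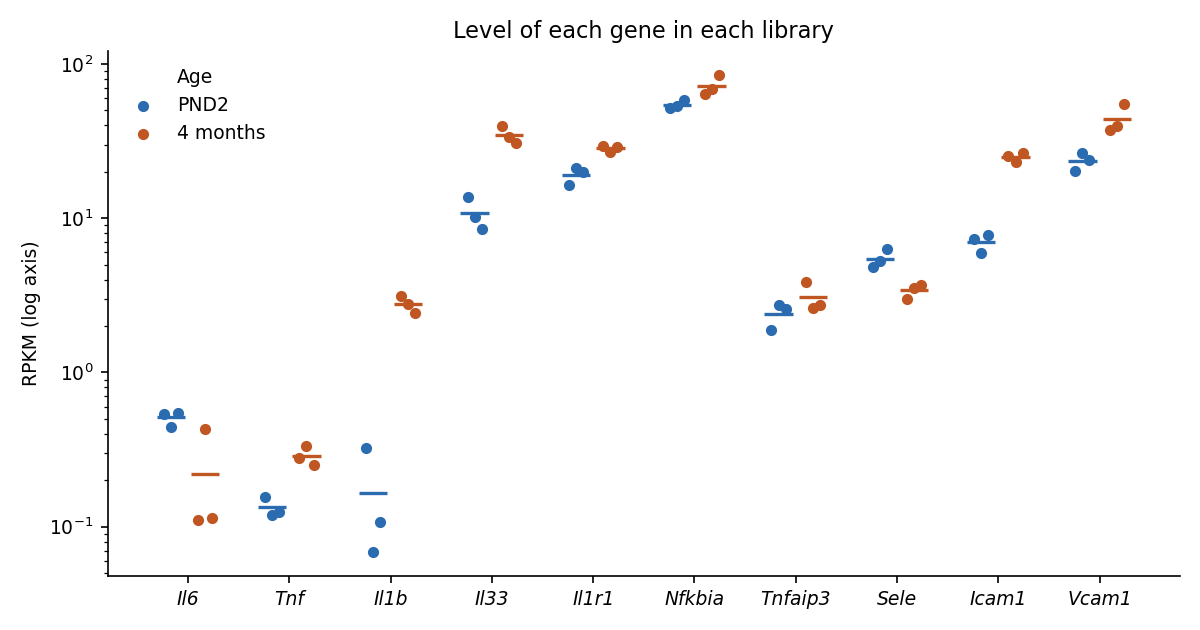
RPKM on a log axis of the 10 genes in each of the 3 PND2 libraries (blue points) and the 3 libraries at 4 months (orange points), with horizontal lines at the mean of each age. The points of the ages are apart for every gene but Tnfaip3, and Il1b shows the widest gap, from a mean of 0.166 to 2.79 RPKM.

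Gene RPKM is scaled by the length of all annotated exons of a gene, and on that scale levels can be ordered between genes. The place of Vcam1 depends on this length, since its 8870 bases include an interval of 4088 bases at 6.84 RPKM at PND2, and its exons 2 to 4 alone stood at 75.5 RPKM at PND2 and 161 at 4 months, above the gene values of Nfkbia. By gene RPKM, the mean level at PND2 was highest for Nfkbia (54.5 RPKM), followed by Vcam1, Il1r1, Il33, Icam1, Sele, Tnfaip3, Il6, Il1b and Tnf (0.134 RPKM). In that order the libraries of Vcam1 and Il1r1 overlapped, as did those of Icam1 and Sele and those of Il1b and Tnf. At 4 months Nfkbia was again highest by gene RPKM (72.5) and Vcam1 the next, but Il33 stood above Il1r1, Il1b above Tnf, and Il6 was last (0.219 RPKM). Neighbours that overlapped at 4 months were Vcam1 and Il33, Sele and Tnfaip3, Tnfaip3 and Il1b, and Tnf and Il6.

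The libraries are of whole valve tissue, in which fewer cells of a type and less RNA per cell cannot be told apart. Marker genes of other cells moved with age too. Summed macrophage marker RPKM was 404 to 456 at PND2 and 1186 to 1314 at 4 months, with 11 of 15 markers called higher and 1 lower. Summed endothelial marker RPKM was 924 to 1252 at PND2 and 575 to 593 at 4 months, with 11 of 15 markers called lower and none higher. Of 11 valve interstitial markers 4 were called higher and 4 lower, with sums of 6648 to 7345 at PND2 and 8391 to 10576 RPKM at 4 months. Markers of tissue next to the leaflet were present at both ages: cardiomyocyte sums were 18152 to 20039 at PND2 and 7244 to 11660 RPKM at 4 months, and smooth muscle sums were 7454 to 8614 and 16842 to 27883. Adipocyte sums were 108 to 196 at PND2 and 458 to 1640 RPKM at 4 months, the last in replicate 2. Neutrophil sums were 28.0 to 34.3 and 1.95 to 2.64, mast cell sums 124 to 177 and 56.8 to 73.9, B cell sums 2.09 to 3.78 and 1.92 to 5.83, and erythroid sums 1865 to 2599 and 750 to 2158. For the T cell markers the sums, 5.11 to 10.5 and 4.69 to 5.31, and the single genes differed, since 4 of 9 were called higher and 2 lower with a median log2 fold change of 1.03. Of the tested markers of the remaining lists, called higher and lower were 9 and 0 of 10 for adipocytes, 0 and 4 of 10 for cardiomyocytes, 6 and 0 of 8 for smooth muscle, 0 and 6 of 8 for neutrophils, 0 and 6 of 9 for mast cells, 1 and 0 of 4 for B cells and 0 and 0 of 5 for erythroid cells. Immediate early and heat shock genes, which cells induce quickly under stress, summed to 313 to 334 RPKM at PND2 and 2136 to 4363 at 4 months, highest in replicate 3, with 13 of 16 genes called higher and 1 lower. The part of these lists in the changes of the 10 genes was not tested.

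Among the cytokines, Il6 (ENSMUSG00000025746, chr5:30013114-30019981, + strand, mm10 here and throughout) encodes interleukin-6, which induces the acute phase response. Its RPKM was 0.539, 0.445 and 0.549 in the PND2 libraries and 0.110, 0.432 and 0.114 in the libraries at 4 months. Replicate 2 at 4 months stood close to the PND2 libraries but just below the lowest of them, and the others were several times lower. The mean was 0.511 ± 0.0571 (SD, n = 3) at PND2 and 0.219 ± 0.185 at 4 months, and the log2 fold change of -1.08 (SE 0.44) did not pass the test (limma, adjusted p = 0.0981). Without replicate 2 at 4 months it was -1.52 with an adjusted p of 0.0269, the only library whose removal gave a call. Relative to the mean of the valve interstitial markers, log2 Il6 differed by -1.31 between the ages, without overlap (exact permutation test, 2-sided, p = 0.1). With a pseudocount of 1 it was -0.55.

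These values rest on few reads, 51, 33 and 39 at PND2 and 10, 25 and 8 at 4 months, so it matters where they lie. Exon intervals of the annotation overlap, and the single intervals named for Il6, Il1b, Il33, Il1r1, Tnfaip3 and Vcam1 were chosen after their values were seen. The interval chr5:30014832-30014945, an internal exon, held 10, 7 and 4 reads at PND2 and 0 reads in each library at 4 months. The interval chr5:30018005-30018154, also an exon, held 10, 5 and 3 reads and then 0, 1 and 0. The long interval chr5:30018005-30019981, which contains that exon, the 3′ end of the gene and the intron between them, held 36, 23 and 31 reads at PND2 and 6, 21 and 7 at 4 months. Most of the 25 reads of replicate 2 at 4 months thus fell in the long 3′ interval, and the internal exon had none. The 3′ exon inside that interval, chr5:30019381-30019975, held 14, 11 and 10 reads at PND2 and 6, 8 and 6 at 4 months. Part of the 21 reads of replicate 2 therefore lay outside the exons inside the interval, as did part of the PND2 reads.

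Tnf (ENSMUSG00000024401, chr17:35199381-35202007, - strand), the ligand that gives the TNF family its name, was the lowest of the 10 genes at PND2. RPKM was 0.156, 0.120 and 0.125 at PND2 and 0.278, 0.333 and 0.253 at 4 months. All 3 libraries at 4 months were above all 3 at PND2. The means of 0.134 ± 0.0198 and 0.288 ± 0.0410 (SD, n = 3) differed 2.15-fold, with a log2 fold change of 0.73 (SE 0.32) that did not pass the test (limma, adjusted p = 0.122). Reads were 10, 6 and 6 against 17, 13 and 12. Pooled over the libraries of an age, the 95% Poisson intervals, which cover counting error only, were 0.0852 to 0.206 RPKM at PND2 and 0.205 to 0.384 at 4 months and met at their ends. Tnf passed the test when limma was run without a mean-variance trend (adjusted p = 0.0121), with values floored at 10 reads (adjusted p = 0.0300) and in the per-gene unequal-variance test (adjusted p = 0.0379). Relative to the mean of the macrophage markers, log2 Tnf was lower by 0.34 at 4 months, and the libraries of the ages overlapped (exact permutation test, 2-sided, p = 0.2). With a pseudocount of 1 the difference was -0.81. Both values depend on the pseudocount, which understates the change of a gene this low. The log2 fold change of Tnf itself was 0.18 with a pseudocount of 1, 0.73 with 0.1 and 1.05 with 0.01. The difference from the markers was not computed at 0.01, so these values cannot decide whether Tnf rose less than the markers.

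Il1b (ENSMUSG00000027398, chr2:129364570-129371139, - strand) encodes the precursor of IL-1 beta, which caspase-1 cleaves to the secreted cytokine. RPKM was 0.323, 0.0687 and 0.108 at PND2 and 3.12, 2.80 and 2.45 at 4 months. The ages were far apart, and within PND2 replicate 1 was several times the others. The log2 fold change was 3.55 (SE 0.39; limma, adjusted p = 0.00072), from 0.166 ± 0.137 to 2.79 ± 0.336 RPKM (SD, n = 3). With few reads at PND2 the size of the change was uncertain: the fold in mean RPKM was 31.6 without PND2 replicate 1, against 16.8 with all libraries, and the log2 fold change was 1.70 with a pseudocount of 1 and 4.36 with voom on reads. Reads were 24, 4 and 6 at PND2 and 222, 127 and 135 at 4 months. Along the gene, 4 of its exon intervals, those from chr2:129369703 to the start of the gene at chr2:129371139, held 0 reads in all 3 PND2 libraries and 4 to 17 reads in each library at 4 months. Il1b overlaps the antisense gene Il1bos, and the use of strand in counting is not given in the sources used here, so reads of the pair cannot be told apart. Of the macrophage markers 11 of 15 also rose, and log2 Il1b minus their mean was higher by 2.48 at 4 months, without overlap between the ages (exact permutation test, 2-sided, p = 0.1, the smallest that 3 libraries against 3 can give). With a pseudocount of 1 this difference was 0.70.

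Il33 (ENSMUSG00000024810, chr19:29925114-29960718, + strand) encodes a nuclear cytokine that damaged cells release and that signals through the receptor ST2. Its RPKM was 13.6, 10.2 and 8.48 at PND2 and 39.5, 33.8 and 30.8 at 4 months. Each library at 4 months was more than double the highest PND2 library. The mean rose from 10.8 ± 2.63 to 34.7 ± 4.42 RPKM (SD, n = 3), a log2 fold change of 1.70 (SE 0.19; limma, adjusted p = 0.00071). Of 17 exon intervals 15 had at least 10 reads in 3 libraries, and all 15 were higher at 4 months without overlap, by 3.02 to 5.10-fold in mean RPKM, where 16.0% of all exons with that many reads were higher without overlap. Several of these intervals overlap and hold the same reads, so they are not independent. Against the endothelial markers, which were lower at 4 months, log2 Il33 was higher by 2.59 (exact permutation test, p = 0.1). The fall of these markers adds to that value. Il33 was not set against the interstitial markers, and libraries of whole tissue do not show which cells made it.

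Il33 has alternative starts, and the exon values bear on them. The upstream starting exon, chr19:29925114-29925161, held 14, 16 and 2 reads at PND2 and 82, 37 and 32 at 4 months, or 7.48, 10.9 and 1.42 RPKM against 45.7, 32.4 and 23.0. The downstream starting exon, chr19:29945790-29945858, held 1, 0 and 0 reads at PND2 and 4, 1 and 0 at 4 months. Reads at the start of the gene therefore lay almost entirely at the upstream exon at both ages. The 250 bases before each start, from RefSeq (GRCm38.p6, whose coordinates are those of mm10), are shown so that the used and the nearly unused start can be compared, the upstream one at chr19:29924863-29925112 and the downstream one at chr19:29945540-29945789, both on the + strand, with matches to TATAAA in capitals.
Il33 upstream start: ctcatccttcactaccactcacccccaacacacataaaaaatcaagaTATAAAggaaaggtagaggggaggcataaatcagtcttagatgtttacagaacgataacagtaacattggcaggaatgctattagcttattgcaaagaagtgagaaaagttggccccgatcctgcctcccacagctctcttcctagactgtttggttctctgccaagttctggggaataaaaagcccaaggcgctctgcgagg
Il33 downstream start: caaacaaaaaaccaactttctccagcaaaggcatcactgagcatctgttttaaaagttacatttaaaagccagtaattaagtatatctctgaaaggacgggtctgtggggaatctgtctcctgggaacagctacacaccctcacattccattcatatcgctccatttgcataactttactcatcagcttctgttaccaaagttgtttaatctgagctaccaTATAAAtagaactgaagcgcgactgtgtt
The match lies at -203 to -198 from the upstream start and at -29 to -24 from the downstream start, the usual distance of a TATA box. TATAAA, searched on both strands, was in 12.4% of the 32851 mouse promoter windows of this length. The start with the match at -29 was the one with almost no reads. Only the exact letters TATAAA were searched, so similar letters near either start were not counted.

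The receptor Il1r1 (ENSMUSG00000026072, chr1:40225080-40317257, + strand) carries the signal of IL-1 alpha and IL-1 beta. Its RPKM was 16.3, 21.0 and 20.0 at PND2 and 29.6, 26.7 and 28.9 at 4 months. The libraries of the ages did not overlap, with PND2 replicate 1 the lowest. Il1r1 rose from 19.1 ± 2.47 to 28.4 ± 1.50 RPKM (SD, n = 3), 1.49-fold, with a log2 fold change of 0.58 (SE 0.12; limma, adjusted p = 0.00977). Relative to the valve interstitial markers the increase was 0.34 on the log2 scale when their mean was used and 0.93 when their median was used. The upstream starting exon, chr1:40225080-40225306, did not share the direction, with 4.63, 3.46 and 6.17 RPKM at PND2 and 4.13, 4.26 and 2.89 at 4 months. The downstream starting exon, chr1:40266586-40266881, had 2.25, 3.76 and 3.00 RPKM and then 4.43, 5.39 and 5.02. Use of either exon relative to the rest of the gene did not pass the test (limma diffSplice, adjusted p = 0.748 and 1.00). Of 15 exon intervals with at least 10 reads in 3 libraries, 8 were higher without overlap and none lower. Il1r1 overlaps Gm38070 on the same strand, so reads in the overlap cannot be told apart.

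Nfkbia and Tnfaip3 act as brakes on the pathway. Nfkbia (ENSMUSG00000021025, chr12:55489411-55492647, - strand) encodes I-kappa-B alpha, which holds NF-kB in the cytoplasm. RPKM was 51.7, 53.0 and 58.7 at PND2 and 63.5, 68.7 and 85.4 at 4 months. Each library at 4 months was above each at PND2, and replicate 3 at 4 months stood highest. The change from 54.5 ± 3.74 to 72.5 ± 11.4 RPKM (SD, n = 3) was 1.33-fold, with a log2 fold change of 0.40 (SE 0.13; limma, adjusted p = 0.044). This call was close to the threshold and was kept in 1 of 6 fits that left out a library, that without replicate 1 at 4 months (adjusted p = 0.0333). The adjusted p was 0.0978, 0.110 and 0.0691 without PND2 replicates 1, 2 and 3, and 0.0725 and 0.116 without replicates 2 and 3 at 4 months. The call was also lost with no filter on low values (0.0566), no trend (0.0959), values floored at 10 reads (0.0748) and the per-gene unequal-variance test (0.168). The immediate early and heat shock genes given above were also highest in replicate 3 at 4 months, and their part in the Nfkbia values was not tested.

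Tnfaip3 (ENSMUSG00000019850, chr10:19000910-19015657, - strand) encodes A20, an enzyme that edits ubiquitin on signalling proteins and shuts NF-kB activation off. RPKM was 1.88, 2.74 and 2.57 at PND2 and 3.83, 2.62 and 2.74 at 4 months. Replicates 1 and 3 at 4 months lay above the PND2 libraries, replicate 3 only just (2.744 against 2.739 RPKM in PND2 replicate 2). Replicate 2 at 4 months did not, and the ages overlapped. The means of 2.40 ± 0.455 and 3.07 ± 0.666 RPKM (SD, n = 3) gave a log2 fold change of 0.34 (SE 0.24; limma, adjusted p = 0.315), which was not called in any fit that left out a library. The exon chr10:19007182-19007329 had 1.04, 1.99 and 2.54 RPKM at PND2 and 8.32, 7.09 and 6.07 at 4 months, from 6, 9 and 11 reads against 46, 25 and 26. Its use relative to the gene had a log2 difference of 1.67 and did not pass the test (limma diffSplice, adjusted p = 0.313).

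**Figure D2:**
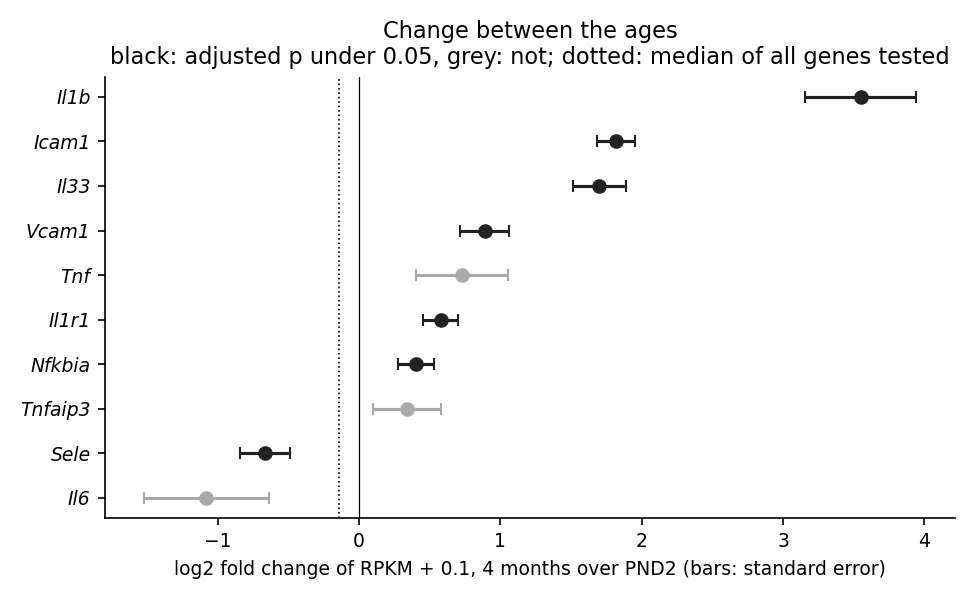
Log2 fold change of RPKM + 0.1, 4 months over PND2, for the 10 genes (points) with its standard error (bars), from limma on 3 libraries per age. Il1b, Icam1, Il33, Vcam1, Il1r1 and Nfkbia (black, right of 0) and Sele (black, left of 0) passed an adjusted p of 0.05, Tnf, Tnfaip3 and Il6 (grey) did not, and the dotted line marks the median of all genes tested at -0.14.

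NF-kB binds motifs of the kappa-B type, often upstream of the genes it drives. RefSeq promoter windows were at hand for 9 of the 10 genes, 12 windows in all, since Il1r1, Il33 and Tnfaip3 have more than 1 start. GGG followed by 3 bases of any kind and TTCC, a form of the kappa-B motif, was searched on both strands and was present in 4.65% of the 32851 windows of the same length. It was held by 4 members: Il6 at -44 to -35, Nfkbia at -29 to -20, Tnfaip3 at -12 to -3 of its upstream and -90 to -81 of its downstream start, and Il1r1 at -232 to -223 of its downstream start. TGANTCA, where N is any base, a form of the AP-1 motif present in 6.75% of windows, was found for Il6, Tnfaip3 and Sele. The windows of Il6 (chr5:30012864-30013113, + strand) and Nfkbia (chr12:55492648-55492897, - strand), each read along its gene's strand, are shown because the pair share the kappa-B letters close to the start, given in capitals with the TGANTCA match at the 5′ end of the Il6 window, with Nfkbia being called higher at 4 months and Il6 not being called.
Il6 promoter: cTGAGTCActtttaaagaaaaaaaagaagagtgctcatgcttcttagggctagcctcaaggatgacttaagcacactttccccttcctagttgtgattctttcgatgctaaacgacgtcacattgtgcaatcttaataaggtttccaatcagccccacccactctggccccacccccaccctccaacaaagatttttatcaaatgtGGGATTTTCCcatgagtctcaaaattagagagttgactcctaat
Nfkbia promoter: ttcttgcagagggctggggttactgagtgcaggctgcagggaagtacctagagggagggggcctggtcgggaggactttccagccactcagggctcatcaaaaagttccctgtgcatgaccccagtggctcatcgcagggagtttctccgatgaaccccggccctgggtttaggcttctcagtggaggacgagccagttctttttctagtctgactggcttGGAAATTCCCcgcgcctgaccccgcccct
A match is a description of the letters and not a bound site. Of the 4 members with the kappa-B letters, Nfkbia and Il1r1 were called higher at 4 months, and Il6 and Tnfaip3 were not called. This split is not firm: the Nfkbia call was close to the threshold, and the unequal-variance test called neither Nfkbia nor Il1r1. Il6 was called lower in 1 fit that left out a library. Il1b, Icam1 and Il33, all called higher, Sele, called lower, and Tnf had no match to these letters in their windows. Other forms of the motif were not searched, so a window without a match may still hold a kappa-B element of another form.

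The adhesion molecules did not share a direction. Sele (ENSMUSG00000026582, chr1:164048234-164057677, + strand) encodes E-selectin, which is made by activated endothelium. Its RPKM was 4.80, 5.28 and 6.35 at PND2 and 2.99, 3.52 and 3.70 at 4 months. All 3 PND2 libraries were higher than all 3 at 4 months. The mean fell from 5.48 ± 0.794 to 3.40 ± 0.371 RPKM (SD, n = 3), so PND2 was 1.61-fold higher, and the log2 fold change was -0.67 (SE 0.18; limma, adjusted p = 0.0247). The call was kept without PND2 replicate 1 (adjusted p = 0.0254) and without replicate 3 at 4 months (0.0491). It was lost without PND2 replicates 2 and 3 (limma, adjusted p = 0.0601 and 0.0902) and without replicates 1 and 2 at 4 months (0.0704 and 0.0543). Relative to the mean of the endothelial markers, log2 Sele differed by 0.23 in the other direction, with overlap between the ages (exact permutation test, 2-sided, p = 0.2).

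Icam1 (ENSMUSG00000037405, chr9:21015960-21028797, + strand) encodes the ligand of the integrins LFA-1 and Mac-1. Its RPKM was 7.38, 5.99 and 7.79 at PND2 and 25.4, 23.1 and 26.5 at 4 months. The libraries of each age lay close together and the gap between the ages was wide. Icam1 rose from 7.05 ± 0.946 to 25.0 ± 1.73 RPKM (SD, n = 3), with a log2 fold change of 1.82 (SE 0.13; limma, adjusted p = 0.00015). All 7 of its exons were higher at 4 months without overlap, by 2.72 to 4.47-fold. Against the endothelial markers the difference was larger, 2.71 on the log2 scale, and every library at 4 months was apart from every PND2 library (exact permutation test, p = 0.1). As for Il33, the fall of these markers adds to that value. Icam1 is also made by macrophages and fibroblasts.

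Vcam1 (ENSMUSG00000027962, chr3:116109949-116129688, - strand) encodes the ligand of the integrin alpha-4 beta-1 and is made by endothelium and by mesenchymal cells. RPKM was 20.3, 26.4 and 23.8 at PND2 and 37.5, 39.6 and 55.2 at 4 months. The ages did not overlap, and replicate 3 at 4 months was the highest. Vcam1 rose from 23.5 ± 3.05 to 44.1 ± 9.69 RPKM (SD, n = 3), 1.87-fold, with a log2 fold change of 0.89 (SE 0.17; limma, adjusted p = 0.00689). On the log2 scale its increase was 1.78 relative to the endothelial markers and 0.66 relative to the interstitial markers, or 1.25 relative to their median (exact permutation test on the means, p = 0.1 for each). The fall of the endothelial markers adds to the value of 1.78. Vcam1 overlaps Gm43109 on the other strand, and its gene value is subject to the same limit on strand as Il1b.

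**Figure D3:**
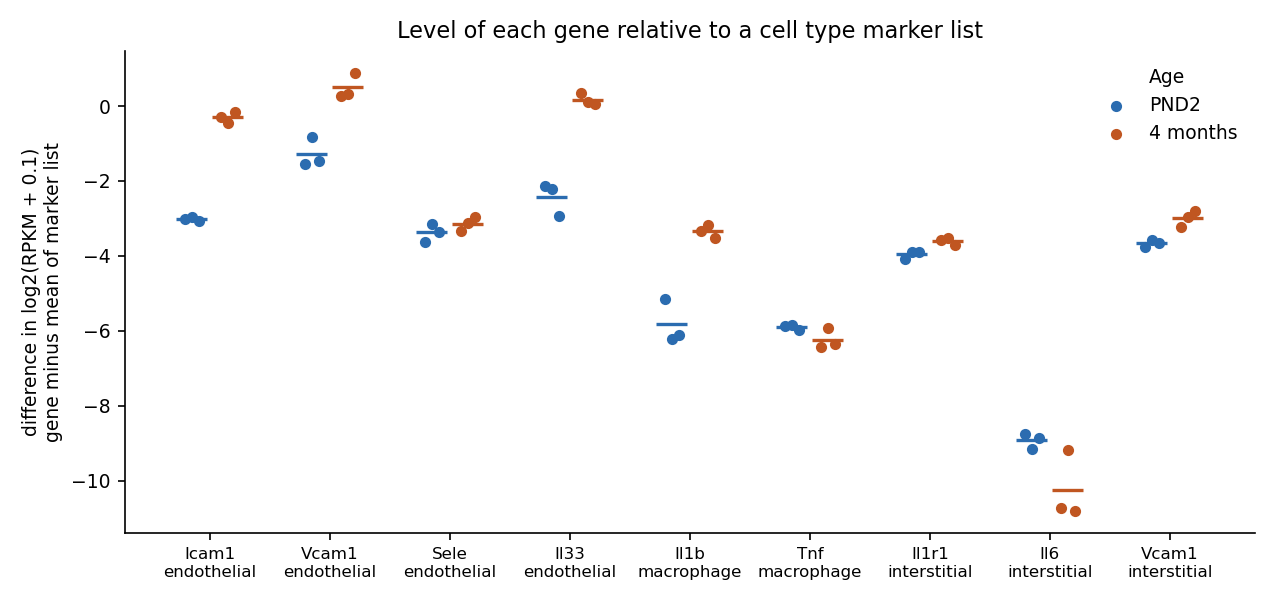
Log2(RPKM + 0.1) of a gene minus the mean over a cell type's marker list, in each PND2 library (blue) and each library at 4 months (orange), with lines at the mean of each age and the marker list named under the gene. Icam1, Vcam1 and Il33 relative to endothelial markers and Il1b relative to macrophage markers are apart between the ages, while Sele relative to endothelial and Tnf relative to macrophage markers overlap.

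Vcam1 was also the only member with an exon called for a change in use relative to the rest of the gene. Its long form, Vcam1-201, continues from exon 4 into further immunoglobulin-like domains, a transmembrane segment and a cytoplasmic tail over 739 codons. A shorter form, Vcam1-203, of 345 codons, ends in an exon of its own after exon 4, and mice are known to make a short VCAM-1 that is held in the membrane by a lipid anchor. The junctions differ as follows, with the last 30 bases of exon 4 in lower case and the 60 bases that follow in capitals, read from the transcripts of GENCODE vM21 (GRCm38, - strand). Exon 5 of the long form lies at chr3:116120798-116121073 and the last exon of the short form at chr3:116122280-116123793, inside the intron of the long form.
Vcam1-201: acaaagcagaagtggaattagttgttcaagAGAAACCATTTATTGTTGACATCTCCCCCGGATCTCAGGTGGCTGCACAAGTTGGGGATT
Vcam1-203: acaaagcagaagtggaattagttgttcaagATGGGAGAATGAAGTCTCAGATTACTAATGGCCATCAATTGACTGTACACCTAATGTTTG
The last exon of the short form had 4.18, 3.31 and 2.78 RPKM at PND2 and 16.6, 14.9 and 22.6 at 4 months. These values come from 247, 153 and 123 reads against 937, 536 and 989, and no library of either age came near the other age. The mean rose 5.26-fold, from 3.42 ± 0.710 to 18.0 ± 4.05 RPKM (SD, n = 3).

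Exons of the rest of the gene rose by less. Exons 2 to 4, shared by both forms, had 65.3, 83.8 and 77.4 RPKM at PND2 and 142, 143 and 199 at 4 months, 2.14-fold higher. Exons 5 to 8, found in the long form, had 56.5, 86.2 and 73.5 RPKM and then 90.8, 102 and 140, 1.54-fold higher. The RPKM of the short-form exon, as a percentage of that of exons 5 to 8, was 7.40, 3.84 and 3.78% at PND2 and 18.2, 14.5 and 16.2% at 4 months, or 5.01 ± 2.08% and 16.3 ± 1.86% (SD, n = 3). The ratio of the shared to the long-form exons moved the same way, from 1.06 ± 0.0920 to 1.46 ± 0.0891. Mean RPKM of the shared and long-form exons was 75.5 and 72.1 at PND2 and 161 and 111 at 4 months. At 4 months these lay further apart than the 18.0 RPKM of the short-form exon, and the rest of the gap was not assigned. The exon at the 3′ end of the gene, chr3:116109949-116111037, is outside these groups and rose 1.75-fold. Reads in the intron around exon 6 gave 1.24, 0.705 and 1.05 RPKM at PND2 and 0.768, 0.970 and 1.27 at 4 months, with overlap between the ages.

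The use of the short-form exon relative to the other exons of the gene was higher at 4 months by 1.51 on the log2 scale (limma diffSplice with voom weights over all exons, adjusted p = 0.00047), where 0.611% of the 227530 exons tested were called. It was the only call among the 90 exon intervals tested, which came from 9 of the genes, Tnf having none with enough reads. In RPKM, 56 of the 90 were higher at 4 months without overlap, beside 16.0% of all exons with enough reads, and 5 were lower without overlap (3 of Sele and 2 of Il6), beside 27.8%. Some of these reached 10 reads only in libraries of the age where they were higher. Among them were those of Il1b, the 2 lower ones of Il6 and chr10:19007267-19007329 of Tnfaip3, whose place in these counts carries no weight. Intervals of a gene overlap and some hold the same reads. They are thus not independent, and these counts follow the gene values given above. This exon test was added after the values were seen. Without PND2 replicate 3 the difference was 1.35 and did not pass (adjusted p = 0.0552), and the other libraries could be left out without losing the call.

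**Figure D4:**
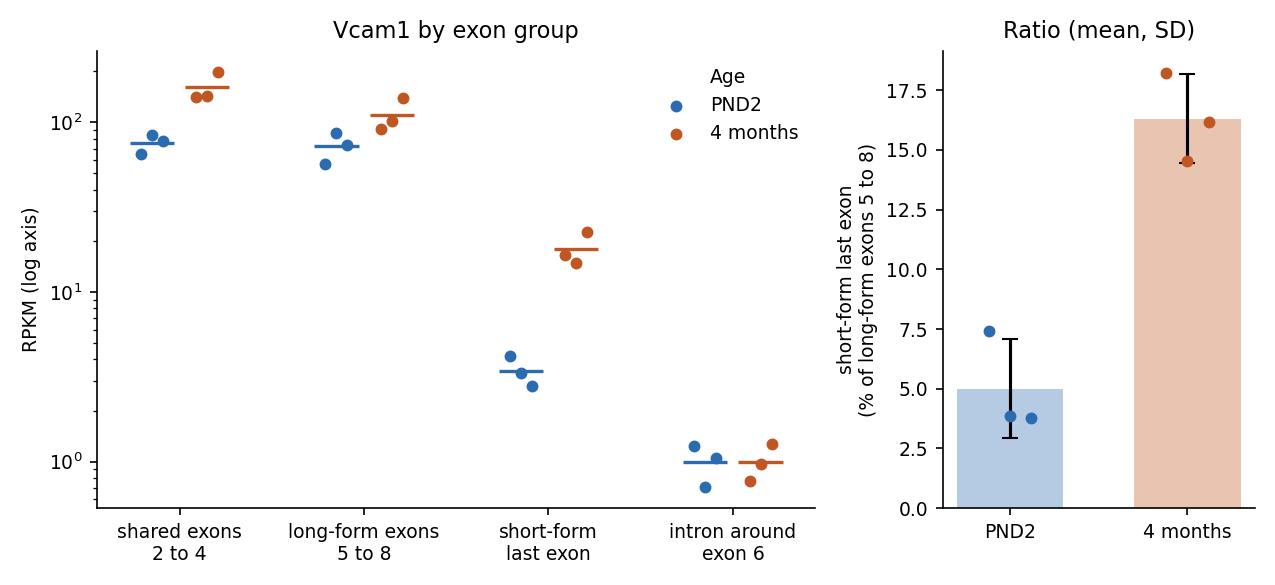
Left, RPKM on a log axis of 4 regions of Vcam1 in each library at PND2 (blue) and 4 months (orange), with lines at the means. Right, RPKM of the last exon of the short form as a percentage of the RPKM of exons 5 to 8 of the long form, with bars at the mean, error bars of 1 SD (n = 3) and points for the libraries, which are at most 7.40% at PND2 and at least 14.5% at 4 months.

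The genes that work with these members were counted from 6 lists of 125 genes, of which 116 were tested. Apart from the 10 members, 39 of 106 genes were called higher (36.8%) and 9 lower (8.49%), beside 14.7% and 21.1% of all genes tested. Every list had more genes called higher than lower.

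Of the IL-1 family ligands, 3 of the 5 tested were higher (Il1b, Il33 and Il18) and none lower. Il18, another cytokine that caspase-1 cleaves, rose from 4.27 ± 0.851 to 6.81 ± 1.14 RPKM (SD, n = 3; limma, adjusted p = 0.0424). The Il18 call was close to the threshold: it was lost without PND2 replicate 2 or 3 (0.0669 and 0.119) and without replicate 1 or 3 at 4 months (0.122 and 0.101), and also with no filter, no trend, the floor at 10 reads, the replicate block and the unequal-variance test (0.0571 to 0.123). Il1f5, Il1f6, Il1f8 and Il1f10 had no reads in any library, and Il1rn, the receptor antagonist, and Il1f9 were too low to test. Of 20 IL-1 receptors, adaptors and processing enzymes 8 were higher and 1 lower. Irak3, an inhibitory kinase-like protein of the pathway, rose from 1.36 to 6.77 RPKM (log2 fold change 2.24), Casp1, the enzyme that cleaves the IL-1 beta precursor, from 1.71 to 5.72 (1.68), and Casp4 from 2.20 to 6.52 (1.55). Il1rl2, the receptor for the IL-36 cytokines, fell from 2.86 to 0.921 RPKM. The limma adjusted p of these 4 was between 0.00039 and 0.00369.

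In the IL-6 family 8 of 20 genes were higher and none lower, Il6 itself not being called. The count was 5 without PND2 replicate 2 or without replicate 2 at 4 months. Osm, the cytokine oncostatin M, rose from 0.0800 to 0.355 RPKM and Cntfr, a receptor subunit, from 4.49 to 10.3 (limma, adjusted p = 0.0243 and 0.00104). Osm, with 88 reads in all, kept its call in 1 of 6 fits that left out a library, that without replicate 1 at 4 months, and had an adjusted p of 0.0620, 0.0517 and 0.0531 without PND2 replicates 1, 2 and 3 and 0.0789 and 0.0818 without replicates 2 and 3 at 4 months. Of 18 TNF ligands, receptors and signalling genes 4 were higher and none lower, against 2 without replicate 1 or replicate 3 at 4 months and 7 with voom. Birc3, a ubiquitin ligase of the TNF receptor complex, rose from 4.06 to 8.56 RPKM, Tnfrsf1b, the type 2 TNF receptor, from 7.90 to 14.2, and Cflar, an inhibitor of caspase-8, from 13.5 to 21.9 (limma, adjusted p = 0.00127, 0.0227 and 0.00203). Tnfrsf1b lost its call without replicate 1 or 3 at 4 months (0.0615 and 0.0722).

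Among 28 NF-kB subunits, kinases and inhibitors 12 were higher and 3 lower. Without PND2 replicate 2 or 3 a total of 9 were called, and 8 without replicate 3 at 4 months. The atypical inhibitors Nfkbiz and Bcl3 rose from 3.69 to 13.1 and from 1.29 to 4.30 RPKM, and the subunit Relb from 5.71 to 11.5 (limma, adjusted p = 0.00134, 0.0108 and 0.0176). Relb lost its call without replicate 1 or 3 at 4 months (0.0529 and 0.0616). The 3 that fell, Map3k7, Tab1 and Tab2, encode the kinase TAK1 and its partners, which act upstream of the inhibitor kinases. Map3k7 fell from 29.7 to 20.7, Tab1 from 17.1 to 10.5 and Tab2 from 40.0 to 30.2 RPKM (limma, adjusted p = 0.00468, 0.0313 and 0.0190). Map3k7 kept its call in all 6 fits that left out a library. Tab1 lost it without PND2 replicate 2 or 3 (0.0827 and 0.101) and without replicate 2 or 3 at 4 months (0.0900 and 0.101), and Tab2 without PND2 replicate 2 or 3 (0.0674 and 0.0589) and without replicate 3 at 4 months (0.0694). Tab2 was also lost with median scaling (0.0544), no trend (0.0531), voom (0.0586) and the unequal-variance test (0.0574). Tab1 was also lost with no trend (0.0591), the replicate block (0.0821), the floor at 10 reads (0.0698) and the unequal-variance test (0.125).

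Of 25 adhesion genes 10 were higher and 6 lower. The 3 largest rises were of genes for proteins on leukocytes: Itgax, an integrin subunit of myeloid cells, went from 0.156 to 2.91 RPKM, Selplg, the selectin ligand on leukocytes, from 0.744 to 4.72, and Itgb7 from 0.493 to 2.85 (limma, adjusted p = 0.00022, 0.00022 and 0.00237). Itga4, a subunit of the receptor for VCAM-1, fell from 15.8 ± 4.87 to 3.74 ± 0.664 RPKM (SD, n = 3; limma, adjusted p = 0.00116), opposite to Vcam1. F11r, a junction protein, fell from 96.1 to 43.7 RPKM (limma, adjusted p = 0.00059). Madcam1, an endothelial ligand of Itgb7-containing integrin, had 25 reads over the PND2 libraries, 0.186 RPKM on average, and 0 reads in each library at 4 months. It entered the test through its PND2 libraries alone, so its place among the 6 called lower carries no weight. The macrophage markers rose as given above, and their part in the rise of Itgax and Selplg was not tested.

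**Figure D5:**
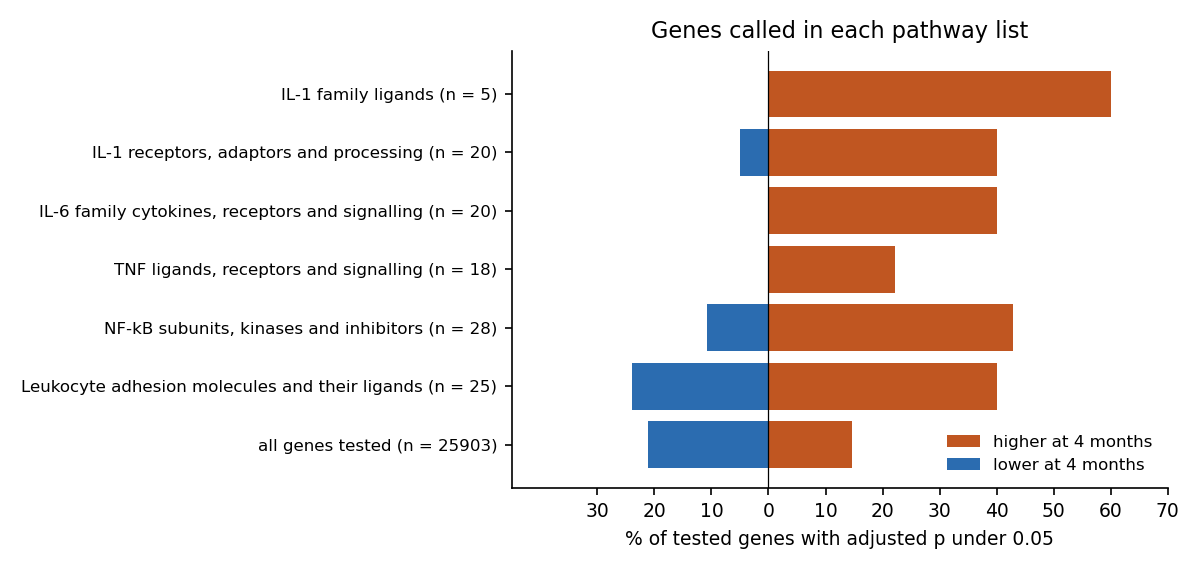
Percentage of the tested genes of each pathway list, and of all 25903 genes tested, that passed an adjusted p of 0.05 and were higher (orange, to the right) or lower (blue, to the left) at 4 months. The bars to the right are longer than those to the left in all 6 lists and shorter over all genes tested, where they stand for 14.7% and 21.1%.

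Across the 6 libraries, each member's log2 level was compared with every other gene of the lists by Pearson's r, as a description in which the points share the 2 ages. The closest gene was Casp4 for Il1b (r = 0.996), Selplg for Icam1 (0.996), Traf2 for Il1r1 (0.993), Casp1 for Tnf (0.990) and Il1b for Il33 (0.989). For the remaining members it was Nlrp3 for Nfkbia (0.977), Chuk for Il6 (0.970), Osmr for Vcam1 (0.961), Madcam1 for Sele (0.956) and Nfkbie for Tnfaip3 (0.954). Madcam1 had 0 RPKM in each library at 4 months and was among the tested genes through PND2 alone, so its place beside Sele carries no weight.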

How the data were processed

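Total RNA of pooled aortic valves was sequenced with a stranded mRNA kit. According to the submitters' processing notes and the methods, reads were quality-filtered, trimmed at their left ends and aligned by the authors with TopHat2 2.1.0 to mm10, and easyRNASeq was used to count them on genes and exons of Ensembl release 83. The authors deposited RPKM per gene and per exon, without the minimum and floor on reads that the methods describe. Use of strand in counting is not given in the sources used here. RPKM times exonic length and library total gave whole reads for 100% of gene and exon values (tolerance 0.001), and these served as the depth behind each value.

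Genes reaching 0.1 RPKM in 3 libraries were compared with limma 3.58.1 (R 4.3.3, data.table version 1.17.8) on log2(RPKM + 0.1), which understates changes of low genes, with eBayes, a trend, 2-sided tests and Benjamini-Hochberg adjustment. A per-gene unequal-variance test was an alternative, run on the same values and without the floor that the methods apply before it. Others were no filter, a filter at 1 RPKM, pseudocounts of 0.01 and 1, no trend, median scaling, quantile normalization, values floored at 10 reads, voom on the reads, a replicate block, and each library left out. Exon counts needed at least 10 reads in 3 libraries. Single values had exact permutation tests over libraries. The steps were tested on simulated data. Sequences were taken from GENCODE and RefSeq. Tables and figures used matplotlib 3.10.9, pandas 2.3.3, numpy 2.4.6 and scipy 1.17.1 under Python 3.11.15.

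All 10 members are named, and from each list the genes called with the 3 largest rises and falls and those without reads, except 1 gene that is not reported here. Members and lists were chosen with earlier results of these data known.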

Additional observations from a re-analysis of the deposited data

How the results depend on the processing

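Directions held for every member under every alternative run. The per-gene unequal-variance test called 3 members higher (Icam1, Il33 and Tnf) and 0 lower, and 3408 of all genes (1466 higher, 1942 lower). Under it Il1b (3.55, adjusted p = 0.0583), Il1r1 (0.58, 0.0893), Vcam1 (0.89, 0.0787), Nfkbia (0.40, 0.168) and Sele (-0.67, 0.0650) were lost and Tnf (0.73, 0.0379) was gained, and the lists held 1 (IL-1 ligands), 4 (IL-1 receptors), 2 (IL-6 family), 5 (NF-kB) and 8 (adhesion) called genes. Nfkbia was also lost with no filter (0.40, adjusted p = 0.0566), no trend (0.0959) and values floored at 10 reads (0.0748). Tnf was gained with no trend (0.73, adjusted p = 0.0121) and with the floor (0.37, 0.0300). With voom the TNF list had 7 calls. Il6 and Tnf could not be tested at an RPKM of at least 1.

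With 1 library left out, Nfkbia ranged from 0.28 to 0.49, Sele from -0.76 to -0.56, Il6 from -1.52 to -0.85 and the Vcam1 exon use from 1.35 to 1.81, and 0 to 1 members were called lower. The IL-6 list had 5 calls without PND2 replicate 2 or replicate 2 at 4 months, the TNF list 2 without replicate 1 or 3 at 4 months (highest 6, without PND2 replicate 1), and the NF-kB list 9 without PND2 replicate 2 or 3 and 8 without replicate 3 at 4 months (highest 13, without replicate 1 at 4 months).

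Replicates with the same number at the 2 ages share only a number: their deviations correlated at 0.0439, -0.0608 and -0.160, and none correlated best with its own number. With the replicate block 7167 genes were called (3004 higher, 4163 lower) against 9273, the IL-6 list had 4 calls against 8, and no member's call changed.

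Relative to markers, a pseudocount of 1 gave 2.57 for Icam1, 0.70 for Il1b, -0.81 for Tnf and -0.55 for Il6, and the median over markers gave 0.93 for Il1r1 and 1.25 for Vcam1. The causes of these changes were not tested. Tnf, Il6 and Il1b at PND2 are limited by reads, and 1 read on 1 kb was worth up to 0.0420 RPKM.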
